A study of Amphimedon queenslandica with 144 samples.

Results

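Larvae of the demosponge Amphimedon queenslandica are brooded by the mother, swim after they emerge and then attach to a surface, where they metamorphose into a juvenile sponge. Coralline algae are well known as cues that induce marine invertebrate larvae to settle, and larvae of this species usually become able to respond to such cues only after a period of swimming. A transcript that responds to an alga before attachment need not stay high afterwards, since attachment is itself followed by extensive changes in gene expression. The 60 transcripts described here had a higher group median in larvae swimming with the articulated coralline alga Amphiroa fragilissima than in larvae swimming in filtered seawater at each of 4 ages, and their median was not raised past a set limit in animals that had settled on the crustose coralline alga Mesophyllum sp.

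Transcripts were counted in 144 single animals by CEL-Seq2, which tags the 3' end of polyadenylated RNA with a barcode for each animal. Each larva was kept in its own well and given one cue at 1.5, 3, 5 or 8 h after emergence, and was collected 2 h later, at an age of 3.5, 5, 7 or 10 h. Animals settled on Amphiroa numbered 13 (6 induced at 5 h and 7 at 8 h) and animals settled on Mesophyllum numbered 14 (7 at each of those times), while larvae still swimming with Amphiroa, with Mesophyllum or in seawater numbered 36 per cue, with 9 at each age. A further 9 newly emerged larvae were taken at 0.5 h with no cue. The labels give no genotype, agent or parent beyond these, and a settled animal was one that stayed attached when the plate was swirled. Levels are given as CPM (each animal's count scaled to a common total) and differences on the log2(CPM+1) scale. RNA came from whole animals, so fewer cells of a type and less RNA per cell cannot be told apart.

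The members were chosen by measured values. Of 47411 features in the table, 44016 were Aqu2.1 gene models, and 1863 of those had a higher median log2(CPM+1) with Amphiroa than in seawater at all 4 ages. A median of at least 5 CPM over the 36 Amphiroa larvae left 1285. Among these, 1035 had a median in animals settled on Mesophyllum less than 0.3 above that of larvae swimming with it at the same induction times, and 250 were at or over that limit. The 60 with the highest mean of the 4 differences are the members. Their mean differences ran from 3.13 for Aqu2.1.06905_001 to 0.75 for Aqu2.1.28576_001. Just outside were Aqu2.1.10196_001 and Aqu2.1.29529_001, both also at 0.75. The member nearest to the settling limit was Aqu2.1.25326_001 with a settled minus swimming difference of 0.28, and the nearest feature beyond it was Aqu2.1.00862_001 with 0.33. The identifiers carry no gene names in the sources used here, so members are given by identifier and no function is assigned to any of them.

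Median totals were 1627331 counts for the Amphiroa larvae, 2045696 for the Mesophyllum larvae and 2172913 for the seawater larvae, so the larvae with the higher levels of the members were also the ones counted less deeply. Per the labels the animals were divided over 3 libraries, T, K and C, of 48 animals apiece. Library C held 25 of the 27 settled animals, 7 of the 36 Amphiroa larvae, 15 of the 36 Mesophyllum larvae and 1 of the 36 seawater larvae. The highest count of any member in any animal was 2570.

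Averaged over the 60 members, the level of a single animal ran from 3.41 to 4.55 on the log2(CPM+1) scale in Amphiroa larvae (median 4.04, n = 36), from 3.24 to 4.07 in Mesophyllum larvae (median 3.62, n = 36) and from 2.87 to 3.81 in seawater larvae (median 3.35, n = 36). Amphiroa larvae thus stood mostly above the seawater larvae with some overlap, as the choice of members makes them do, and Mesophyllum larvae lay between. Newly emerged larvae had a median of 3.54 (3.28 to 3.80, n = 9). Animals settled on Amphiroa had a median of 3.38 (2.60 to 3.85, n = 13), close to that of the seawater larvae, and animals settled on Mesophyllum had a median of 3.16 (2.67 to 3.90, n = 14). Inside libraries the medians of Amphiroa and seawater larvae were 4.02 and 3.35 in T, and 4.15 and 3.35 in K. The larvae of T and K are among those that chose the members, so the values within these libraries are a description. Within T, 56 of the 60 members had a positive mean difference, and within K 58 did. The differences were positive at all 4 ages for 22 members within T and for 27 within K.

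**Figure D1:**
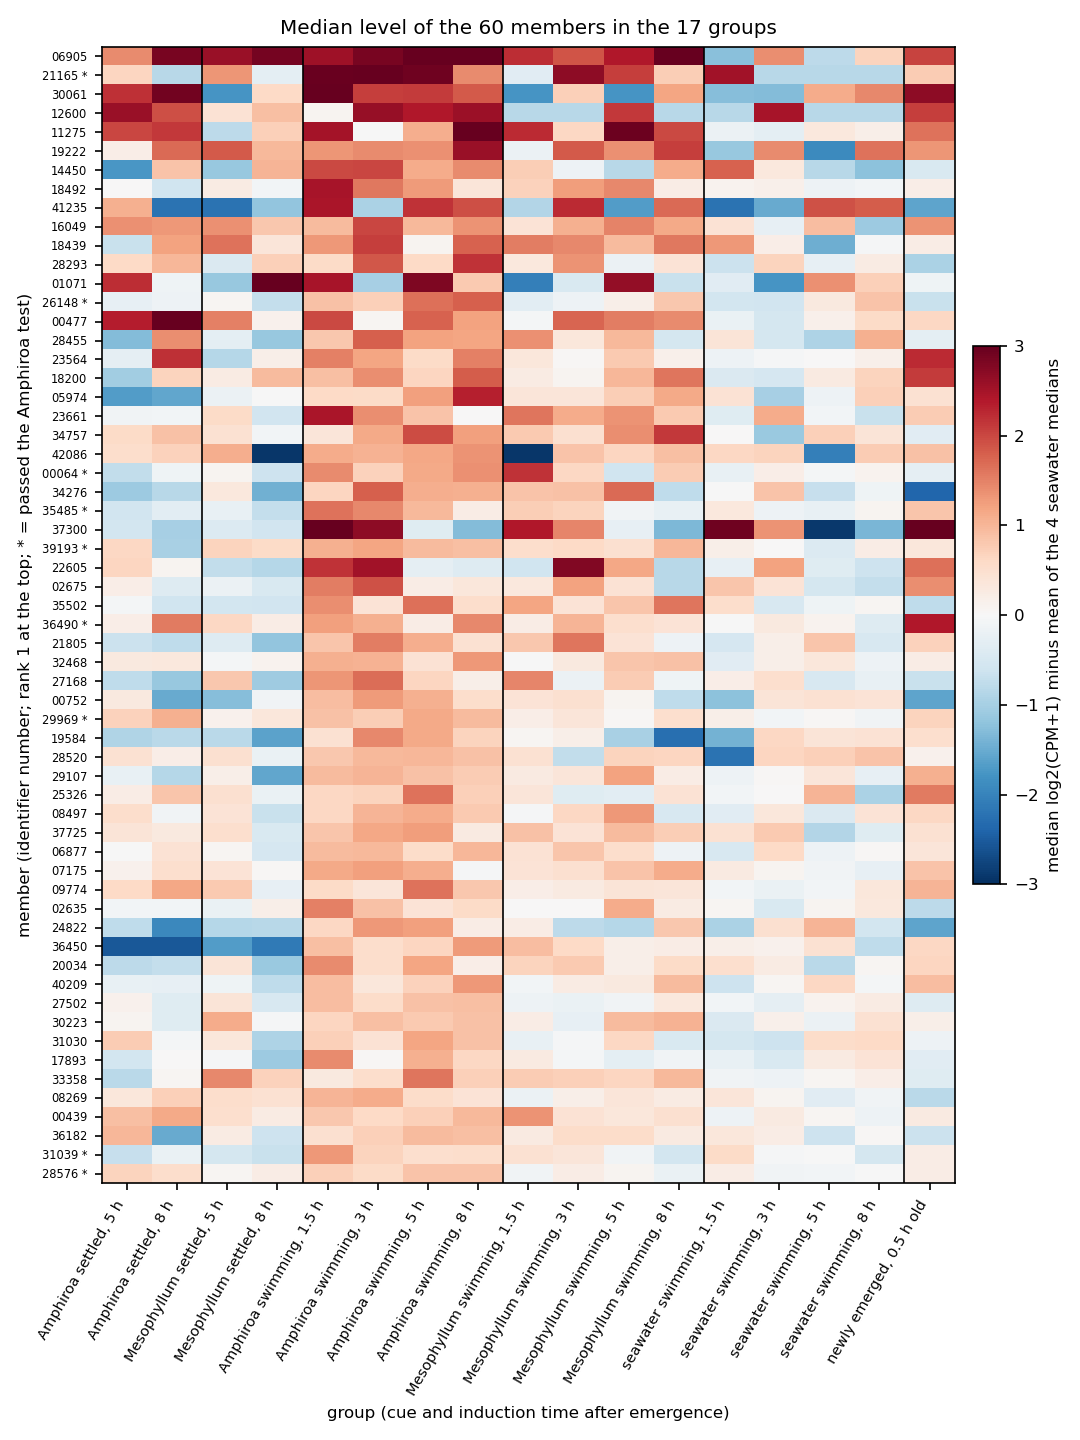
Median level of each member (rows, in order of mean Amphiroa minus seawater difference) in the 17 groups (columns), as median log2(CPM+1) minus the mean of the 4 seawater medians. The Amphiroa swimming columns are red in nearly every row because the members were chosen so, while the settled columns mix red and blue. Asterisks mark the 9 members that passed the test of Amphiroa against seawater larvae.

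The set is uneven in how firmly its members differ. In edgeR's quasi-likelihood fit with a term for library, 9 of the 60 members passed an adjusted p of 0.05 as higher in Amphiroa than in seawater larvae and 0 passed as lower. Over all 14950 features tested, 2.32% were called higher and 5.5% were called in either direction. The rule used this contrast, so the count is a description. All 60 members entered the fit, with a median log2 fold change of 0.67 against -0.02 over all features, and 57 of them had a positive one. Another 60 transcripts taken with the same rule but raised on settling, at or over the limit of 0.3, included 34 that passed.

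The members with the largest differences were seldom the even ones. In 22 members a count was present in all 117 swimming larvae, and their ranks ran from 15 to 60; they held 6 of the 9 called members. Another 16 members had no count in 12 or more of those larvae, in up to 56 of them for a single member, yet held 8 of the first 10 ranks and 1 called member. The SD between animals of one group, pooled over the 8 groups of the choice, had a median of 0.88 among the called members, 1.45 among the 51 others and 0.69 over all features tested.

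**Figure D2:**
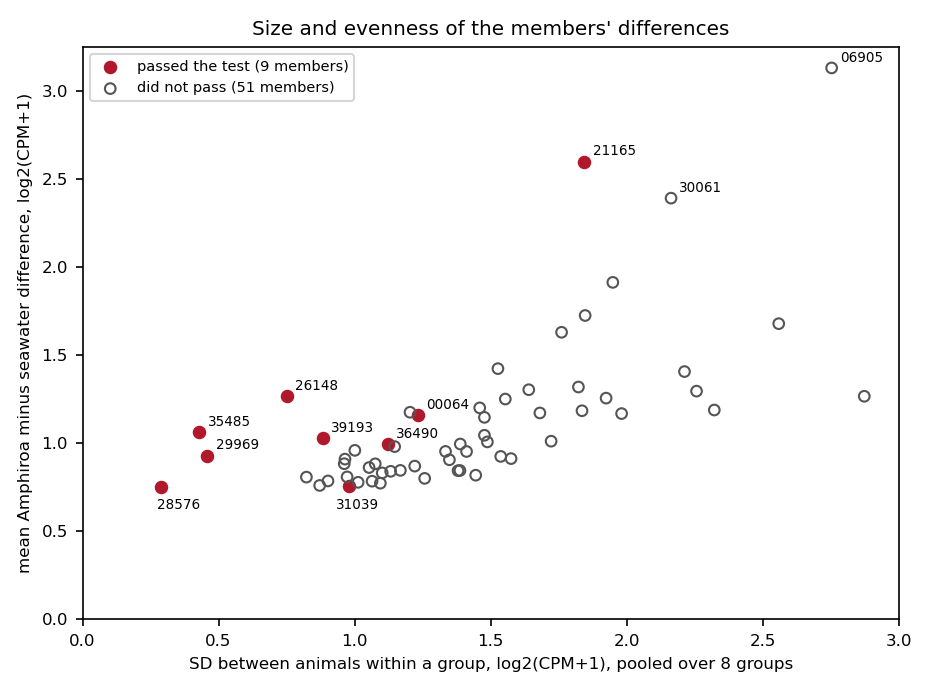
Mean Amphiroa minus seawater difference of each member (vertical axis, log2(CPM+1)) against the SD between animals of one group (horizontal axis, same scale, pooled over 8 groups of 9 larvae). The 9 called members (filled) lie mostly at low SD, and Aqu2.1.06905_001, with the largest difference of 3.13, lies far to the right among those that did not pass (open).

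The difference was also uneven over the ages. Its median over the members was 1.10, 0.85, 0.97 and 0.80 at 3.5, 5, 7 and 10 h. A difference of at least 2-fold at every age was found in 1 member. In 35 members the largest of the 4 differences was at least 5 times the smallest, and in 19 the smallest was under 0.2. When every animal was thinned at random to 541737 counts, the lowest total of the table, 23 of the 60 were picked again, with 5 of the 9 called members among them, and with means in place of medians 28 were picked again.

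The most even member was Aqu2.1.28576_001, with 47.8 to 141 CPM in Amphiroa larvae (median 93.2), 28.5 to 113 CPM in Mesophyllum larvae (median 55.1) and 41.1 to 83.2 CPM in seawater larvae (median 58.7). Of the 36 Amphiroa larvae 34 were above the seawater median and 25 were above the highest seawater larva, whereas Mesophyllum larvae spread to both sides of the seawater median. Its log2 fold change between Amphiroa and seawater larvae was 0.68 ± 0.09 (SE), and the choice of members used this contrast. By library, its medians were 110 CPM with Amphiroa against 64.5 CPM in seawater in T, and 84.6 against 52.8 CPM in K.

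Aqu2.1.35485_001 had 29.6 to 189 CPM in Amphiroa larvae (median 106), 24.6 to 161 CPM in Mesophyllum larvae (median 54.3) and 25.2 to 92.0 CPM in seawater larvae (median 45.3). There were 22 Amphiroa larvae above the highest seawater larva, and the overlap came mainly from the oldest age, described further on. Aqu2.1.29969_001 had 8.26 to 47.7 CPM in Amphiroa larvae (median 19.4), 4.88 to 27.0 CPM in Mesophyllum larvae (median 10.9) and 4.15 to 15.7 CPM in seawater larvae (median 9.54), and 24 of 36 Amphiroa larvae exceeded every seawater larva. Aqu2.1.39193_001 had 6.40 to 66.3 CPM in Amphiroa larvae (median 18.5) and 3.11 to 42.9 CPM in seawater larvae (median 8.53). Its groups overlapped over most of their range, but 34 of 36 Amphiroa larvae were above the seawater median. The log2 fold changes between Amphiroa and seawater larvae were 1.01 ± 0.12 for Aqu2.1.35485_001, 1.00 ± 0.15 for Aqu2.1.29969_001 and 1.16 ± 0.27 for Aqu2.1.39193_001 (SE).

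In several called members the levels in Amphiroa larvae differed between libraries. In Aqu2.1.00064_001 and Aqu2.1.26148_001 no Amphiroa larva of library C was above the highest seawater larva. Aqu2.1.00064_001 had 2.49 to 217 CPM in Amphiroa larvae (median 22.8), 0.944 to 864 CPM in Mesophyllum larvae (median 11.9) and 3.20 to 43.9 CPM in seawater larvae (median 8.21). In library K its medians were 55.3 CPM with Amphiroa and 44.2 CPM with Mesophyllum, against 9.36 CPM in seawater, and in T they were 16.7 and 10.1 CPM against 7.62 CPM. In library C the 7 Amphiroa larvae had 2.49 to 14.8 CPM (median 5.51) and the 15 Mesophyllum larvae 2.16 to 19.0 CPM (median 7.78). Both ranges began below the lowest seawater larva and ended below the highest. The 1 seawater larva of library C had 6.17 CPM.

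Aqu2.1.26148_001 had 1.80 to 30.7 CPM in Amphiroa larvae (median 8.40) and 0.496 to 9.31 CPM in seawater larvae (median 3.17). Its medians were 8.61 CPM with Amphiroa against 3.80 CPM in seawater in T, and 9.92 against 2.72 CPM in K. The 7 Amphiroa larvae of library C had 2.82 to 5.01 CPM, all within the range of the seawater larvae. The 1 seawater larva of library C had 6.73 CPM, above all of them. The part of the library in these differences was not tested. With libraries T and K only, both members were still called and 15 of the 60 members passed.

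**Figure D3:**
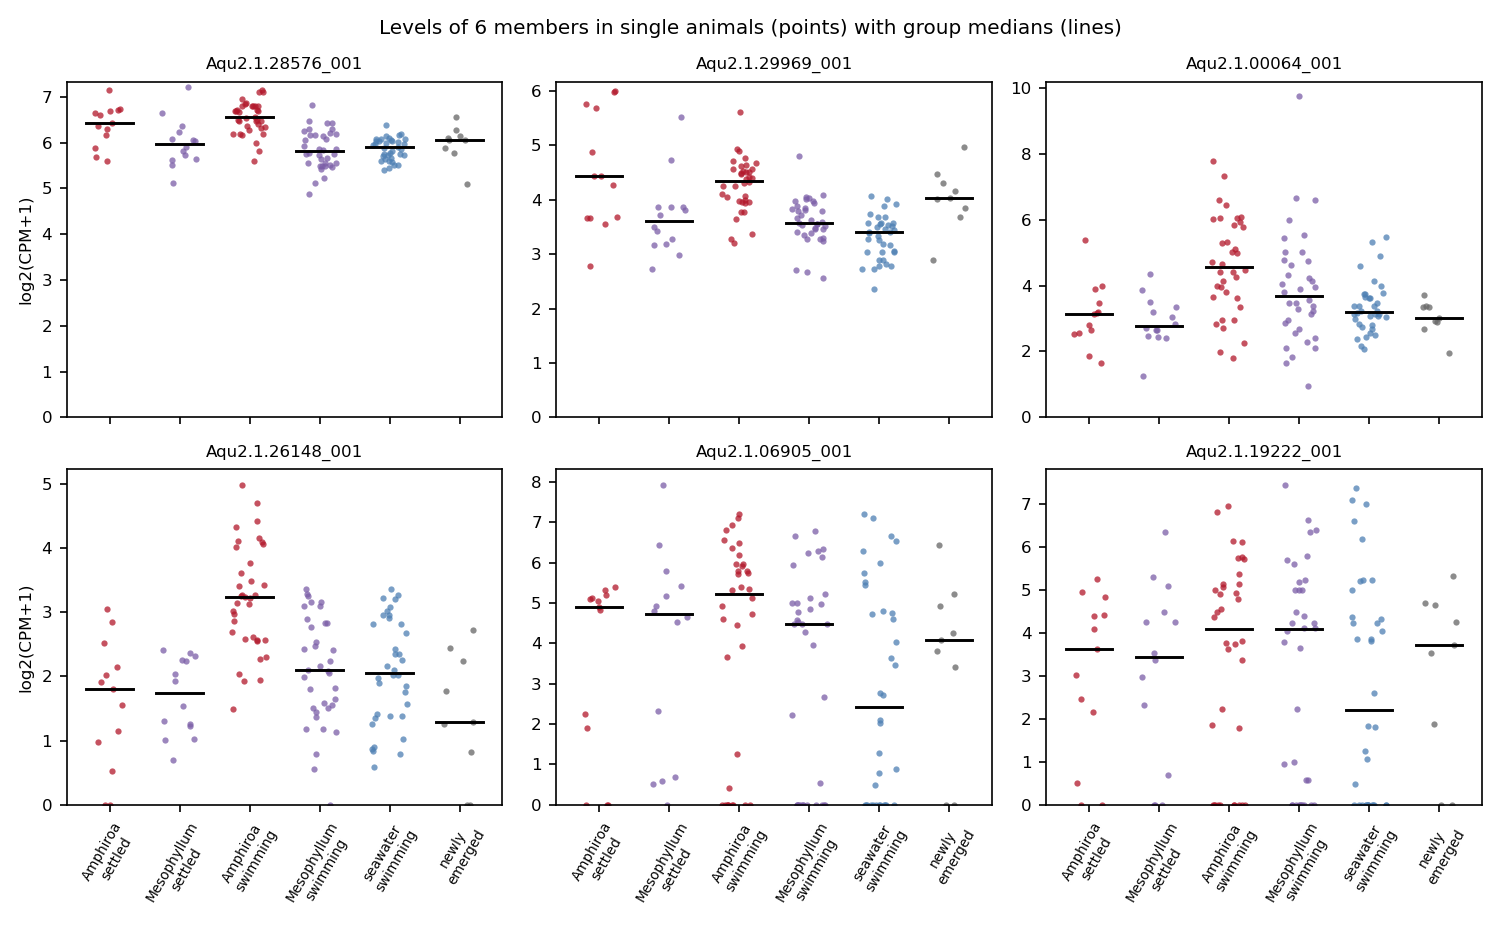
Level of 6 members in single animals (points) with the median of each group (lines), on the log2(CPM+1) scale, by cue and state over all ages. Aqu2.1.28576_001 and Aqu2.1.29969_001 are tight in swimming larvae. In animals settled on Amphiroa their medians (84.9 and 20.6 CPM) are near those of Amphiroa larvae, while Aqu2.1.29969_001 spreads from 5.85 to 62.5 CPM. Aqu2.1.00064_001 and Aqu2.1.26148_001 spread more and have low medians in settled animals. All animals settled on Amphiroa were in library C, with medians of 7.82 and 2.51 CPM for these members. Amphiroa larvae of that library had medians of 5.51 and 3.81 CPM. Aqu2.1.06905_001 and Aqu2.1.19222_001 run from no count to high levels, with some animals at low levels between.

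The other 3 called members were less steady. Aqu2.1.36490_001 had a median of 19.2 CPM in Amphiroa larvae (0 to 51.2) and of 8.00 CPM in seawater larvae (1.76 to 27.5), but its highest median, 54.4 CPM (11.9 to 81.2, n = 9), was in the newly emerged larvae, which had met no cue. Its log2 fold change against seawater larvae was 0.98 ± 0.24 (SE) over all libraries and 0.80 within K, where its call was lost. Aqu2.1.31039_001 had medians of 27.8 CPM in Amphiroa larvae (0.603 to 93.2) and 14.9 CPM in seawater larvae (3.82 to 71.6), and it failed the test in 6 of 11 alternative fits. Its Amphiroa medians were 30.6 CPM in library T, 34.9 CPM in K and 15.6 CPM in C. Aqu2.1.21165_001 was without a count in 10 of 36 Amphiroa larvae, 12 of 36 Mesophyllum larvae and 21 of 36 seawater larvae. Its medians were 10.9 CPM with Amphiroa and 5.21 CPM with Mesophyllum, against 0 CPM in seawater. With Amphiroa the medians were 12.6 CPM in T, 13.9 CPM in K and 4.94 CPM in C. Its log2 fold change against seawater larvae was 1.80 ± 0.56 (SE) over all libraries, 0.71 within T and 3.02 within K, and its call was lost within T and with no low-count filter.

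The first-ranked member, Aqu2.1.06905_001, did not pass. It had 0 to 145 CPM in Amphiroa larvae (median 36.3) and 0 to 146 CPM in seawater larvae (median 4.46), with no count in 9 and 12 larvae. The groups covered the same range and differed in how many larvae were high. Aqu2.1.19222_001, a member named after its values were seen, had nearly the same profile over animals. The pair had a Pearson correlation of 0.90 over the 117 swimming larvae, 0.92 within the Amphiroa larvae and 0.91 within the seawater larvae. Of all 144 animals 98 had counts of both, 33 of neither, 7 of the first alone and 6 of the second alone. Their ratio of CPM was 1.28 at the median, with quartiles of 0.75 and 3.01, so they were not a fixed multiple of each other. Whether reads of similar sequence were shared between them was not tested.

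Beyond that pair correlations between members were mostly low. Over the 1770 pairs the median correlation was 0.05 and 3 pairs exceeded 0.5. The other two were Aqu2.1.35485_001 with Aqu2.1.37300_001 at 0.59 and Aqu2.1.29969_001 with Aqu2.1.28576_001 at 0.56. These correlations are over larvae of 3 cues and 5 ages, and differences between the groups enter them. Within a cue, Aqu2.1.35485_001 with Aqu2.1.37300_001 had 0.78 in Amphiroa larvae and 0.51 in seawater larvae, over 4 ages. Aqu2.1.29969_001 with Aqu2.1.28576_001 had 0.32 in Amphiroa larvae and 0.14 in seawater larvae. No 2 members had consecutive identifier numbers, and the smallest gap was 9. Outside the members, the transcripts most like the members' mean over the 36 Amphiroa larvae were Aqu2.1.20847_001 (r = 0.69) and Aqu2.1.27974_001 (r = 0.67).

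Pooled over ages, the most abundant members changed little in proportion to their spread. Aqu2.1.28520_001 had 20.1 to 641 CPM in Amphiroa larvae (median 388) and 25.6 to 799 CPM in seawater larvae (median 352). Aqu2.1.00752_001 had 27.1 to 840 CPM in Amphiroa larvae (median 275) and 31.6 to 680 CPM in seawater larvae (median 194). Both ranges overlapped almost wholly, and neither member passed the test.

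Larvae swimming with Mesophyllum were set against the same seawater larvae that chose the members, so the values stand as a description. The median was above that of the seawater larvae for 48 of the 60 members with Mesophyllum. In the fit 49 members had a positive log2 fold change, with a median of 0.29 against -0.01 over all features, and 1 member passed, Aqu2.1.00064_001. Of all features 0.214% passed. The log2 fold change of Aqu2.1.00064_001 was 1.77 ± 0.31 (SE). Without the 1 larva at 864 CPM, left out after the data were seen, it was 1.19 ± 0.26 and the call stayed. The call was lost with no library term (1.00), with only the groups compared (1.44) and within library T (1.72), of 9 alternatives. Of the 6 pooled sets of animals, Amphiroa larvae had the highest median for 38 members, newly emerged larvae for 12, animals settled on Amphiroa for 5, Mesophyllum larvae for 4 and animals settled on Mesophyllum for 1. The choice of members asks for Amphiroa medians above seawater and limits the rise on Mesophyllum, so this order is largely built in. Newly emerged larvae, given no cue, were above the seawater median for 40 members. Animals settled on Amphiroa were above it for 33 and animals settled on Mesophyllum for 30. Low seawater medians are favoured by the choice of members, so these counts are a description too.

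Age was a comparison the rule did not make, although it used the same larvae. Between 10 h and 3.5 h, 3 members fell in Amphiroa larvae, 4 in Mesophyllum larvae and 2 in seawater larvae, and 0 rose in any of them. The shares called in either direction among all features were 15.9% with Amphiroa, 6.17% with Mesophyllum and 7.93% in seawater, so the members' counts were below or about at those shares. Falls alone were called in 1043 of all 14950 features with Amphiroa, 490 with Mesophyllum and 602 in seawater. Set against falls alone, the 4 of 60 members with Mesophyllum were above the share of all features. Their median log2 fold changes were -0.15, -0.27 and -0.10, against 0.06, 0.02 and 0.02 over all features. Library changed with age among Mesophyllum larvae. Library K held 8 of them, all aged 3.5 or 5 h, and the larvae aged 7 and 10 h were in T and C alone. The fit had a term for library, but the medians and ranges by age below do not take it into account.

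Aqu2.1.37300_001 was the member that fell under all 3 cues. With Amphiroa its medians were 717, 517, 61.3 and 31.9 CPM at 3.5, 5, 7 and 10 h, with Mesophyllum 427, 220, 66.9 and 30.5 CPM, and in seawater 608, 205, 9.88 and 29.98 CPM. The 9 larvae at 10 h had 6.54 to 159 CPM with Amphiroa and 7.38 to 221 CPM in seawater, all below the lowest larva at 3.5 h (349 and 399 CPM). With Mesophyllum 7 of 9 were below it. The newly emerged larvae had 116 to 802 CPM (median 665). The log2 fold change from edgeR was -4.10 ± 0.70 with Amphiroa (adjusted p = 2.63e-06), -2.21 ± 0.66 with Mesophyllum (adjusted p = 0.0251) and -3.43 ± 0.68 in seawater (adjusted p = 0.000164; SE throughout). Over the alternative fits its adjusted p ran from 7.47e-10 to 0.114 with Amphiroa, where it was lost within libraries T and K. With Mesophyllum it ran from 0.00454 to 0.588, lost in 4 of 9 fits, and in seawater from 1.12e-06 to 0.147, lost within library K.

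Aqu2.1.35485_001 fell with age in larvae given either alga. At 10 h it had 29.6 to 89.3 CPM with Amphiroa (median 50.4), against 106 to 188 CPM at 3.5 h (median 136), with no overlap. With Mesophyllum the medians were 36.9 CPM at 10 h and 72.4 CPM at 3.5 h, and in seawater 45.6 and 53.6 CPM. The log2 fold change was -1.53 ± 0.24 with Amphiroa (edgeR adjusted p = 2.30e-07, 2.81e-09 to 0.205 over 9 alternatives, lost within T alone) and -0.89 ± 0.24 with Mesophyllum (edgeR adjusted p = 0.00988, 0.00382 to 0.547 over 9 alternatives). With Mesophyllum the call was lost with the replicate block, with only the groups compared and within T. Mesophyllum larvae aged 7 and 10 h had medians of 69.8 CPM in T and 34.5 CPM in C, and the part of the library was not tested. Aqu2.1.35485_001 did not pass in seawater, and the difference between cues in the change with age was not tested. At 10 h the medians of Amphiroa and seawater larvae, 50.4 and 45.6 CPM, were close, whereas at 3.5 h they were 136 and 53.6 CPM.

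Each of the other calls came from a single cue. Aqu2.1.23661_001 in Amphiroa larvae had 0 to 6.00 CPM at 10 h (median 2.51) and 0 to 41.9 CPM at 3.5 h (median 17.8), and all 9 older larvae were under the younger median (log2 fold change -2.71 ± 0.72, edgeR adjusted p = 0.00374, 0.000591 to 0.124 over 7 alternatives). Aqu2.1.31039_001 in seawater larvae had 7.05 to 16.1 CPM at 10 h (median 9.80) and 15.3 to 71.6 CPM at 3.5 h (median 22.2), and 8 of 9 older larvae were below every younger one (-1.54 ± 0.47, edgeR adjusted p = 0.0230, 0.00261 to 0.138 over 9 alternatives). In Mesophyllum larvae Aqu2.1.00064_001 had 3.31 to 31.3 CPM at 10 h (median 15.4) and 0.944 to 864 CPM at 3.5 h (median 42.7). All 9 older larvae were below the younger median, and the younger group held both the lowest and the highest larva. The older larvae were all in libraries T and C. Over all ages its Mesophyllum medians were 44.2 CPM in K, 10.1 CPM in T and 7.78 CPM in C. Its log2 fold change was -2.52 ± 0.60 (SE, edgeR adjusted p = 0.00282). Without the larva at 864 CPM, of library T, it was -0.07 ± 0.52 (edgeR adjusted p = 0.969), so the call rested on that larva. The adjusted p reached 5.44e-05 at its lowest over 9 alternatives. The fourth, Aqu2.1.08497_001, was named after its values were seen, with medians of 18.6 CPM at 10 h and 25.8 CPM at 3.5 h and wide overlap (-1.59 ± 0.46, edgeR adjusted p = 0.0181, 0.00621 to 0.760 over 9 alternatives).

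**Figure D4:**
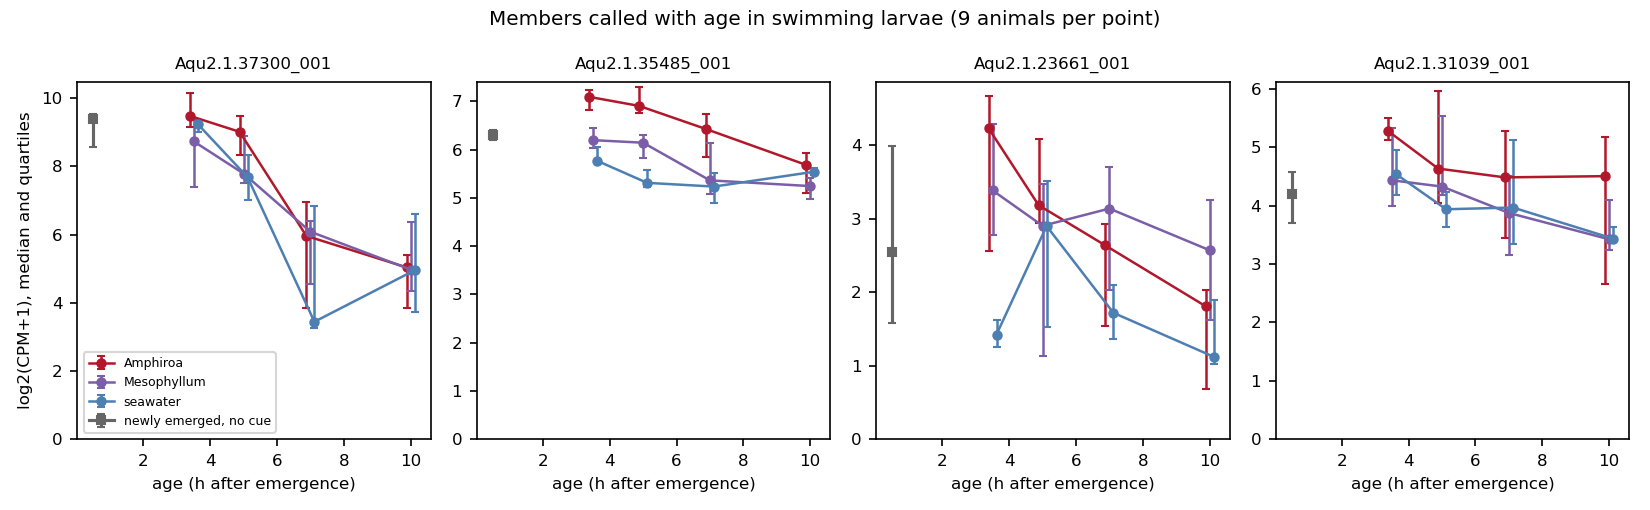
Median (points) and quartiles (bars) of log2(CPM+1) for 4 members against age in hours after emergence, with 9 larvae per point, by cue, and the newly emerged larvae at 0.5 h as squares. Aqu2.1.37300_001 descends steeply under every cue, with medians of 31.9, 30.5 and 29.98 CPM at 10 h, while Aqu2.1.35485_001 meets the seawater line only at 10 h.

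Attachment was examined with animals settled on Amphiroa, which the rule did not use, against larvae swimming with Amphiroa at the same induction times, which it did use. Members were chosen for high values in those larvae, and a lower value after settling is partly built in, so the counts are a description. Of the 60 members 1 was called higher and 4 lower, 5 in all, against 25.1% of all features called. The median log2 fold change was -0.31 against -0.11 over all features, and 44 of 60 were negative. The 60 raised again on settling had 38 called higher, with a median of 1.71, although they were chosen for that rise on Mesophyllum. All 13 settled animals were in library C against 3 of the 18 swimming larvae, and of these groups libraries T and K held swimming larvae alone.

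Aqu2.1.36450_001, a member named after its values were seen, had 0 to 68.5 CPM in animals settled on Amphiroa (median 4.12) and 4.47 to 138 CPM in larvae swimming with it (median 62.3). Of the 13 settled animals 12 were below the swimming median and 8 were below the lowest swimming larva. In library C alone the 3 swimming larvae had 30.6 to 70.9 CPM. On Mesophyllum, where the rule set an upper limit, its medians were 6.95 CPM in settled animals and 33.1 CPM in swimming larvae.

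Aqu2.1.05974_001 had 0 to 35.5 CPM in settled animals (median 1.76) and 0 to 76.0 CPM in swimming larvae (median 19.95). Of the settled animals 12 of 13 were below the swimming median, and the 3 swimming larvae of library C, at 40.9 to 59.1 CPM, were above them all. Aqu2.1.19584_001 had 0 to 17.7 CPM in settled animals (median 2.79) and 0.666 to 39.8 CPM in swimming larvae (median 11.8), with 12 of 13 settled animals below the swimming median.

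Aqu2.1.26148_001 had 0 to 7.32 CPM in settled animals (median 2.51) and 2.85 to 25.1 CPM in swimming larvae (median 12.0). All 13 settled animals were below the swimming median. Its 3 swimming larvae of library C had 2.85 to 5.01 CPM, within the range of the settled animals. Its log2 fold change was -1.33 ± 0.47 (SE) with all animals in the fit and -0.16 with only the groups compared. The other called members, with all animals in the fit, had -2.36 ± 0.79 for Aqu2.1.05974_001, -2.10 ± 0.76 for Aqu2.1.19584_001 and -1.78 ± 0.50 for Aqu2.1.36450_001 (SE). With only the groups compared, 0 members were called, and the log2 fold changes were -2.64 for Aqu2.1.05974_001, -1.97 for Aqu2.1.19584_001 and -1.57 for Aqu2.1.36450_001. Within library C alone, with 7 settled animals and 3 swimming larvae induced at 8 h, an alternative added after the data were seen, they were -2.57, -2.04 and -2.40 in the same order, and again 0 members were called.

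Aqu2.1.29969_001 was the member called higher. It had 5.85 to 62.5 CPM in settled animals (median 20.6) and 12.6 to 26.2 CPM in swimming larvae (median 21.2). The medians were nearly the same, while the settled animals spread to both sides of the swimming range, with 5 above its highest and 5 below its lowest larva. The log2 fold change of means was 0.83 ± 0.26 (SE), against 0.70 with only the groups compared and 1.00 within library C at 8 h, and the call was lost in both and in 1 other of 8 alternatives.

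**Figure D5:**
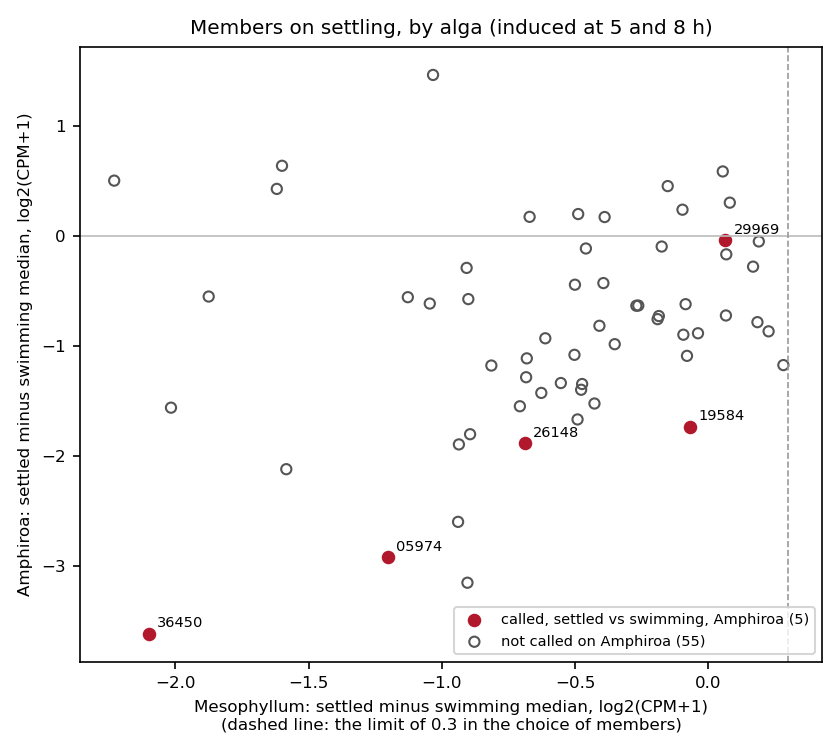
Settled minus swimming difference of group medians in log2(CPM+1) for the 60 members, on Amphiroa (vertical axis) and on Mesophyllum (horizontal axis), with animals induced at 5 and 8 h pooled. No member lies right of the dashed line at 0.3 because the choice of members sets that limit, and the 5 members called on Amphiroa (filled) include Aqu2.1.36450_001 at the lower left and Aqu2.1.29969_001 near 0.

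Animals settled on Amphiroa were called different from animals settled on Mesophyllum in 1 of the 60 members, against 0.428% of all features tested. The choice of members had set an upper limit on the settled Mesophyllum animals relative to the swimming ones, which leans towards higher values on Amphiroa, so the count is a description. The member was again Aqu2.1.29969_001, with 5.85 to 62.5 CPM on Amphiroa (median 20.6, n = 13) and 5.62 to 44.8 CPM on Mesophyllum (median 11.2, n = 14). Of the animals on Amphiroa 11 of 13 were above the Mesophyllum median and 4 were above its highest animal. The log2 fold change was 0.95 ± 0.24 (SE), between 0.85 and 1.17 over 8 alternatives, and the call was lost in 6 of them. Over the 60 members the median log2 fold change was 0.14 against -0.02 over all features, and 37 were positive.

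Among animals settled on Amphiroa, those induced at 8 h differed from those induced at 5 h in 0 of the 60 members by edgeR and 0 by DESeq2, against 0.816% of all features by edgeR. At an unadjusted p under 0.05 there was 1. The median log2 fold change was 0.07 against 0.00 over all features, in groups of 7 and 6 animals.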

How the data were processed

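A single table of raw counts for 144 individual animals was deposited by the authors. Per the labels, CEL-Seq2 reads were handled by a public CEL-Seq pipeline and counted on Aqu2.1 gene models. Neither the aligner nor a genome build is given in the sources used here. From these counts the rule of choice was applied to CPM over column sums, with a pseudocount of 1. Both the members and the comparisons were chosen with earlier results of these data known.

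Tests used edgeR 4.0.16 in R 4.3.3 on 14950 features left by its low-count filter by group, with TMM scaling (factors 0.644 to 1.20), a robust quasi-likelihood fit of all 144 animals with 17 group means plus library as a covariate, and Benjamini-Hochberg adjustment over all features tested. Tests were 2-sided, a call is an adjusted p under 0.05, and the standard error of a log2 fold change is its size over the square root of F. Comparisons over several ages weight each group equally. Of the tested features 424 had identifiers of another form, which the labels do not describe. DESeq2 1.42.0 was an alternative. The edgeR and rule code was tested on simulated data. Tables and plots were made with Python 3.11.15, NumPy 2.4.6, pandas 2.3.3 and matplotlib 3.10.9.

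The members named are the 2 with the highest and the 2 with the lowest mean difference, the 2 most abundant in Amphiroa larvae, the 2 most even, those at both edges of the choice, up to 2 risers and 2 fallers with the largest change among the calls of each comparison, and the 2 other features most like the members' mean. The remaining called members and Aqu2.1.19222_001 were named after their values were seen. A reference gene table of the species matched 0 of the identifiers, so no name, position or sequence is printed. Each animal was a separate individual, so p-values measure the spread between the individuals sampled. The labels give no parent, so a shared mother could not be taken into account.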

Additional observations from a re-analysis of the deposited data

Results flagged for a closer look

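Single animals stood far from the rest of their group in 14 of the 170 sets of animals examined, each set being 1 group of 6 to 9 animals and 1 called member or the members' mean. Chance alone flags about 1 in 20. Levels are on the log2(CPM+1) scale, each with the next value of the group. No explanation was tested for any of them.

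Among larvae swimming with Amphiroa, Aqu2.1.36490_001 was at 0 in 1 larva of library K aged 3.5 h (next 3.26) and at 0.59 in 1 larva of library C aged 10 h (next 3.11). The same transcript was at 1.61 in 1 Mesophyllum larva of library C aged 7 h (next 3.45).

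Aqu2.1.00064_001 was at 5.49 in 1 seawater larva of library K aged 7 h (next 3.76), the highest of all seawater larvae, and at 1.26 in 1 animal of library C settled on Mesophyllum and induced at 8 h (next 2.45). Aqu2.1.31039_001 was at 1.51 in 1 Mesophyllum larva of library T aged 3.5 h (next 3.87), which was also the larva with the highest level of Aqu2.1.00064_001, and at 2.07 in 1 newly emerged larva of library K (next 3.65).

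Aqu2.1.29969_001 was at 5.52 in 1 animal of library C settled on Mesophyllum and induced at 8 h (next 3.87), and at 2.70 in 1 Mesophyllum larva of library K aged 3.5 h (next 3.35). Aqu2.1.28576_001 was at 7.22 in 1 animal of library T settled on Mesophyllum and induced at 5 h (next 6.09). Aqu2.1.39193_001 was at 0 in 1 animal of library C of the same group (next 2.90). Aqu2.1.21165_001 was at 2.91 in 1 animal of library C settled on Mesophyllum and induced at 8 h (next 0.69).

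Aqu2.1.35485_001 was at 7.07 in 1 Mesophyllum larva of library T aged 10 h (next 5.56). Averaged over the 60 members, 1 seawater larva of library K aged 3.5 h was at 3.81 (next 3.49), the highest of the seawater larvae.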

How the results depend on the processing

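Each count of called members and each called member was recomputed under the alternatives. Of the counts 49 stayed within 1.5 times and 29 moved further, and of the single calls 179 held, 54 missed the threshold and 0 changed direction. Under Amphiroa against seawater larvae, 15 members passed with only the groups compared, 15 by DESeq2 and 15 with libraries T and K only, an alternative chosen after seeing the data. Under Mesophyllum against seawater, 0 passed with no library term, with only the groups compared and within library T. Under settled against swimming on Amphiroa, 8 passed with no library term, 1 with the replicate block, 0 with only the groups compared and 0 within library C at 8 h, the last chosen after seeing the data. Under settled on Amphiroa against settled on Mesophyllum, 0 passed with no low-count filter, no library term, the replicate block, total count as a covariate, only the groups compared, and within library C. Between 10 h and 3.5 h, Amphiroa larvae had 5 members called by DESeq2, 0 within library T and 1 within library K. Seawater larvae had 5 with only the groups compared and 0 within library K, and Mesophyllum larvae had 1 with the replicate block and 0 with only the groups compared and within library T. Leaving out 1 Mesophyllum larva aged 3.5 h, with the highest level of Aqu2.1.00064_001, gave 1 member for Mesophyllum against seawater and 3 for Mesophyllum with age. Settled on Amphiroa, 8 h against 5 h, had 1 with the replicate block. The cause was not tested in any of these, and fits within 1 library also had fewer animals. The replicate block used the numbers in the titles, which did not pair the animals. Over 868 pairs of animals of different groups with the same number the median correlation of deviations was -0.01, and over 8882 pairs with other numbers it was -0.01. Of the 60 members the rule found 28 again with means within groups, 36 with libraries T and K only, 36 with no minimum CPM and 23 after thinning, against 47, 48 and 50 with TMM-scaled CPM, a pseudocount of 5 and a settling limit of 0. Library C held 1 seawater larva, so Amphiroa against seawater was not fitted within it.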
